A study of Mus musculus with 43 samples.

Results

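The genes described here are the tumour suppressor p53 and a set of genes around it in the testis of young mice. They are Trp53 itself, its relative Trp63, its inhibitor Mdm2 and the p53 targets Cdkn1a, Bax, Bbc3, Ccng1, Phlda3, Sesn2 and Trp53inp1. The 10 genes were chosen by name, with earlier results of these data known, and were matched by their GENCODE vM21 symbols to 10 of the 55401 gene identifiers in the expression tables. The study deleted the arginine methyltransferase gene Prmt1 in germ cells and asked what this changed in gene expression, and it mapped arginine methylation and other histone marks in the same tissue.

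All mice were C57BL/6J. The mutants, named Prmt1-dKO, were Prmt1 lox/lox with loxP sites around exons 4 and 5, and carried Ddx4-CreERT2. This allele places an HA tag, EGFP and a tamoxifen-inducible Cre at Ddx4, a gene of germ cells, so that deletion was limited to the cells that express Ddx4 and needed tamoxifen, which was injected over 3 days. The controls are labelled WT. For the cell sort the methods name heterozygous Prmt1 +/lox mice with the same Cre as the controls, so that the sorted WT group may carry 1 deleted allele, and the design text gives the injections for both genotypes. RNA was collected at postnatal day 7 (P7). Bulk RNA-seq was made from 3 WT and 3 Prmt1-dKO samples that the labels call spermatogonia and the extraction protocol calls testis. Transcripts of Leydig cells, which are somatic, were abundant in them (963 to 1311 counts of Insl3 in the WT libraries), and they are called whole testis here. Smart-seq2, an amplified full-length protocol for low input, was run on 2 WT and 2 Prmt1-dKO samples of GFP-positive spermatogonia. CUT&Tag, in which a tethered transposase cuts at an antibody-bound mark, gave 33 peak lists of 7 marks from tubule cells, 17 at P7 and 16 at P14. All were WT apart from 2 Prmt1-dKO lists of symmetric dimethylation of H4R3 (H4R3me2s) at P7. The study calls its replicates biological without saying whether each library came from a separate animal, so that p-values measure the spread between these samples. The P14 titles name spermatogonia and the P14 cell type field names spermatocytes, and peak names in the 3 P14 H4R3me2s lists begin with SD17 where the labels give 14 days, so that comparisons between the ages rest on labels that differ among themselves.

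In GRCm38, Trp53 lies at chr11:69580359-69591873, Mdm2 at chr10:117688875-117710758 and Trp63 at chr16:25683763-25892102. The targets lie at chr17:29090976-29100727 (Cdkn1a), chr11:40748552-40755311 (Ccng1), chr7:45461697-45466898 (Bax), chr7:16308393-16318205 (Bbc3), chr1:135766119-135769136 (Phlda3), chr4:132492032-132510501 (Sesn2) and chr4:11156431-11174379 (Trp53inp1). All 10 are protein-coding. Exons of 2 of them overlap another annotated gene, Cdkn1a with AC167363.2 on the opposite strand and Bax with Gm45808 on the same strand, and those neighbours had at most 9 counts in any library.

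p53 is a transcription factor that is kept scarce in unstressed cells, because the ubiquitin ligase Mdm2, itself a p53 target, marks it for degradation. When DNA damage or other stress stabilises p53, it binds its response elements and switches on genes that halt the cell cycle (Cdkn1a, Ccng1), that kill the cell (Bax, Bbc3) or that restrain growth signalling and oxidative damage (Phlda3, Sesn2, Trp53inp1). Much of this control acts on the protein, so the level of Trp53 RNA is not a measure of p53 activity. In the testis p53 is known for removing damaged germ cells.

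Sequences of the kind p53 binds are shown first because they give the matches to the p53 pattern near these genes and the histone marks over them, by a rule whose settings change the set of genes. The search was for the canonical p53 site, formed by a pair of 10-base copies without a spacer. Each copy has 3 purines, then C, 2 bases that are A or T, G, and 3 pyrimidines. The C and G of both copies were required, and up to 2 of the other 16 bases could deviate. Windows of 3000 bp around every annotated transcript start were read from the GRCm38 reference. The pattern is its own reverse complement, so that 1 scan covers both strands. Such a site was found near 3 of the 10 genes, Cdkn1a, Ccng1 and Bax, and near 11.7% of 21938 protein-coding genes. In the sequences below, printed on the forward strand, capitals mark the central 4 bases of each copy, from the required C to the required G.
Cdkn1a, chr17:29090928-29090947, 1 deviation: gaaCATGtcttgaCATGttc
Ccng1, chr11:40754936-40754955, 1 deviation: agaCTAGcccgggCTTGcgt
Ccng1, chr11:40755462-40755481, 1 deviation: aggCTTGcccgggCAGGtct
Bax, chr7:45466574-45466593, 2 deviations: cgaCAAGcccgggCCTGccc

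The Cdkn1a site lay at −38 bp from the first annotated start of the gene and at −2831 bp from the start of its next group of transcripts. No CUT&Tag peak of any of the 33 lists covered it. The Ccng1 sites lay on either side of the first start of that gene, at 365 bp in an intron and at −161 bp upstream, and peaks covered them in 18 and 9 of the 33 lists. The Bax site lay in an exon, 314 bp downstream of the first start, and was covered in 7 lists. With 3 deviations allowed, sites also appeared near Mdm2, Bbc3 and Trp53, for 6 genes in all, but 41.9% of coding genes then had one. With a spacer of up to 1 base, 5 of the 10 genes had a site, against 24.8% of coding genes. Within 1000 bp of a start the same 3 genes had one, against 4.41% of coding genes. A match is a description of the sequence and does not show that p53 was bound there.

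The depth of the libraries was similar. Totals ran from 12396345 to 16598249 counts in whole testis and from 15610392 to 18547103 in sorted spermatogonia. Prmt1 was lower in every mutant library, as a check of the labels. Its counts were 3540 to 3927 in WT and 1996 to 2496 in Prmt1-dKO testis (log2 fold change −0.49 ± 0.13 SE, edgeR adjusted p = 0.0334), and 2852 and 4182 against 1307 and 1746 in sorted cells (−0.88 ± 0.26, edgeR adjusted p = 0.133). One library stood apart in testis, Prmt1-dKO replicate 2, which correlated with the other mutant libraries at 0.971 and 0.965 across genes, against 0.983 between those. In sorted cells the 2 WT libraries correlated at 0.788 and the 2 mutant libraries at 0.953. In the WT sorted libraries 15572 and 17069 genes had a count, against 20159 and 21350 in the mutant ones. The Prmt1 call in testis was lost in 5 of 6 fits with 1 library left out (edgeR adjusted p of 0.0696 to 0.105) and was −0.63 with an edgeR adjusted p of 0.00015 without Prmt1-dKO replicate 2.

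Among the 10 genes, levels were compared as TPM, a unit scaled to the library total, which corrects for transcript length. In WT testis Bax, the BCL2-family protein that opens the mitochondrial membrane, was the highest at 198.8 ± 18.9 TPM (SD, n = 3), followed by Trp53 at 108.9 ± 5.92, Phlda3 at 68.2 ± 6.86 and Mdm2 at 47.4 ± 1.07. Ccng1 (33.2 TPM) and Sesn2 (30.4 TPM) followed with overlapping ranges, and then Trp53inp1 (21.0 TPM). Bbc3, Cdkn1a and Trp63 closed the order at 7.70, 4.82 and 0.93 TPM. Each other pair of neighbours in this order had ranges that did not overlap. In WT sorted spermatogonia Bax again led at 311 TPM (243.7 and 379.0), but the rest of the order was different. Cdkn1a, the cyclin-dependent kinase inhibitor p21, stood at 29.1 and 23.1 TPM, against 4.24, 4.69 and 5.54 in the testis libraries, 5.41-fold higher by the means. Trp53 stood at 17.5 and 37.4 TPM against 105.0 to 115.7 in testis, 0.252-fold. Sesn2, which restrains mTORC1 under stress, was also lower in the sorted cells (3.66 and 10.5 TPM against 29.6 to 31.6), while Mdm2 was close in both (40.8 and 54.2 against 46.6 to 48.7). The assays differ in input, amplification and cells at once, which cannot be told apart, and these levels were set side by side without a test.

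**Figure D1:**
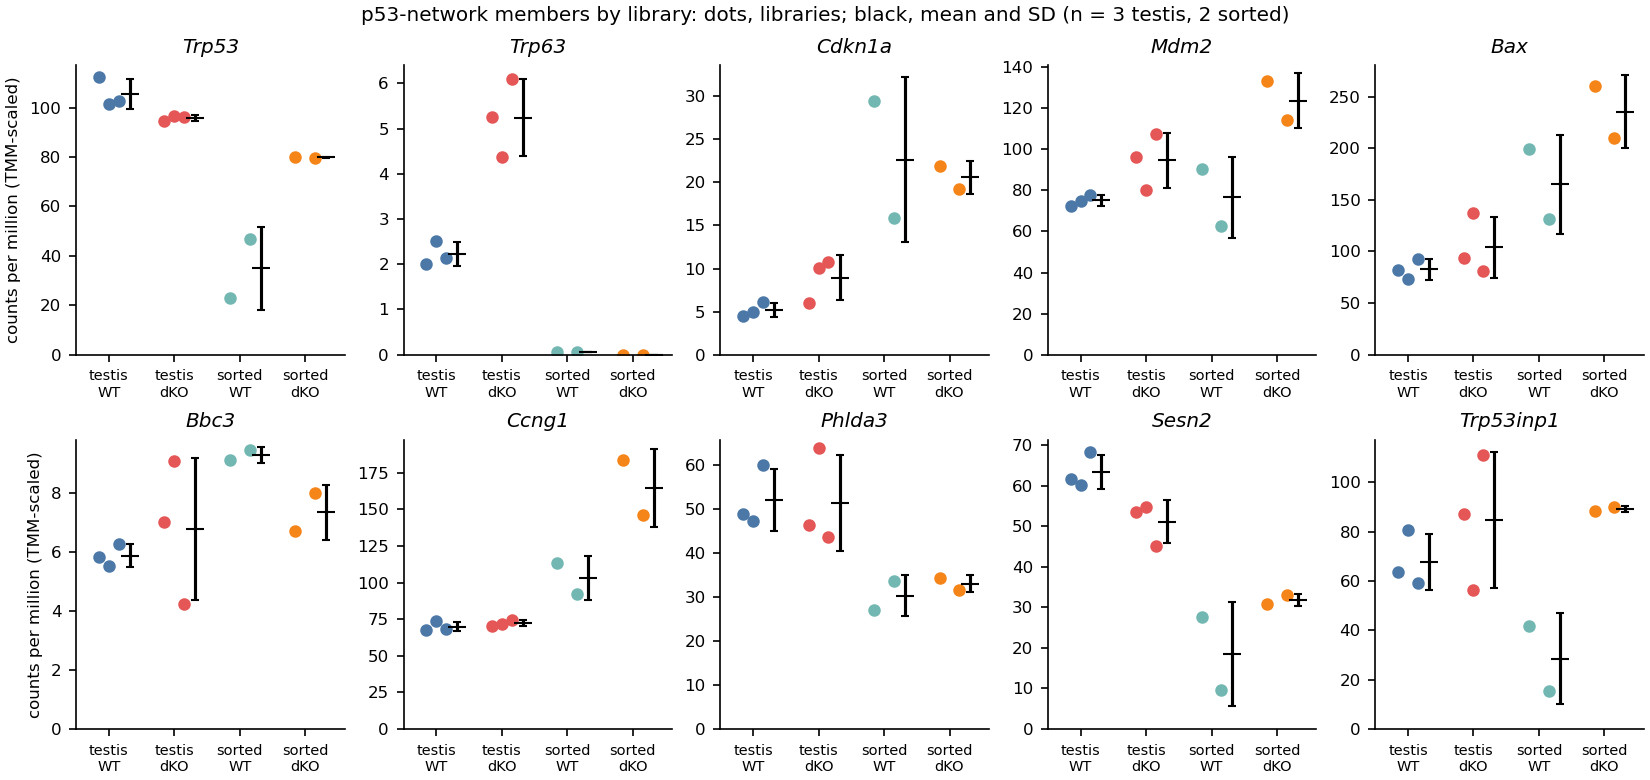
CPM (TMM-scaled, y axis from 0) of the 10 genes in whole testis and sorted spermatogonia, by genotype; dots are libraries and black bars the mean and SD (3 and 3 testis libraries, 2 and 2 sorted). Trp63 was above WT in all 3 mutant testis libraries, and Trp53 was below WT in mutant testis and above WT in mutant sorted cells.

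In whole testis 1 of the 10 genes, Trp63, passed the test for a difference between genotypes. It rose about 2.36-fold and was the only one past both the false discovery rate (FDR) of 0.05 and a change of 2-fold. Over all 16554 genes tested, 5.32% were called higher and 1.78% lower by the same rule, so that 1 of 10 higher and 0 of 10 lower is near the background. At any fold, 19.1% of all genes passed the FDR and again 1 of the 10. In CPM the mutant libraries lay wholly above WT for 2 of the 10 genes, Trp63 and Mdm2 (20.9% of all genes), and wholly below for 2, Trp53 and Sesn2 (19.9%). In TPM they lay above for Trp63 and Cdkn1a (12.4% of all genes) and below for Trp53 and Sesn2 (26.4%). The median log2 fold change of the 10 was 0.26, against 0.02 over all genes. In a bulk tissue, fewer cells of a type and less RNA per cell cannot be told apart, and markers of somatic cells moved with genotype here. Summed over 9 Leydig cell markers, the level was 808 to 941 CPM (library-scaled counts) in WT and 496 to 544 in Prmt1-dKO libraries, and over 7 peritubular myoid markers it was 1170 to 1330 against 437 to 917. Of the 9 Leydig cell markers, 5 were past the FDR and lower, among them Insl3 (70.1 to 2.77 CPM) and Cyp17a1 (75.9 to 2.46). Lhcgr was past it and higher (15.1 to 24.4 CPM). Nr5a1, the highest of the 9, was at 296 CPM in WT and 248 in Prmt1-dKO. Over 14 Sertoli cell markers it was 7560 to 8540 against 6000 to 6250 CPM, and 7 of the 13 tested were past the FDR, all lower in Prmt1-dKO. The sum over 14 germ cell markers overlapped, at 1820 to 2040 against 1810 to 1900 CPM. Of these 1 was past the FDR, Ddx4, which was lower in Prmt1-dKO (155 to 97.3 CPM, −0.67 ± 0.16, edgeR adjusted p = 0.0184). In the same list 9 of the 14 had a log2 fold change above 0. The part of these shifts in the values below was not tested.

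Trp53, the gene of p53 itself, had 112.5, 101.4 and 102.8 CPM in the WT testis libraries and 94.4, 96.6 and 96.4 in the mutant ones. The mutant values were lower without overlap, by a small step (log2 fold change −0.14 ± 0.10 SE) that did not pass the test (edgeR adjusted p = 0.344). Wrap53, whose transcripts start within 3000 bp of Trp53 on the other strand, was at 29.3 ± 3.32 CPM in WT and 34.3 ± 0.995 in Prmt1-dKO (edgeR adjusted p = 0.214). Over the 6 libraries the genes whose log2 CPM followed Trp53 most closely were Rccd1, Oxsm and Ripk1, with Pearson r of 0.996, 0.987 and 0.982. They are the highest of 12953 genes compared, and the libraries share the genotype split, so that this is a description.

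Trp63 encodes p63, a p53 relative that guards oocytes and maintains basal cells of stratified epithelia. Its counts were low, 30, 41 and 34 in WT and 72, 55 and 96 in mutant testis, or 2.01, 2.51 and 2.14 against 5.25, 4.38 and 6.09 CPM. Every mutant library was above every WT library. The log2 fold change was 1.24 ± 0.24 SE with an edgeR adjusted p of 0.00878. Without Prmt1-dKO replicate 2 it was 1.35 (edgeR adjusted p = 0.00123), and without WT replicate 1 it was 1.16 and narrowly missed the FDR (edgeR adjusted p = 0.0511). Epithelial markers are a list added after their values had been seen. Of 12, 9 were tested, 8 of them had a fold change above 0 and 2 passed the FDR, against 19.1% of all genes. These were the simple-epithelial keratins Krt18 (log2 fold change 2.30, edgeR adjusted p = 0.00302) and Krt8 (1.56, edgeR adjusted p = 0.0138). The Krt8 call was lost without WT replicate 1 (edgeR adjusted p = 0.0503) or 2 (0.0602). The summed level of the 12 was 89.9 to 101 CPM in WT and 126 to 223 in Prmt1-dKO. The basal keratins Krt5 and Krt14, which mark the cells that depend on p63, had 0 to 1 and 4 to 6 counts in WT libraries. In mutant replicates 1, 2 and 3 Krt5 had 0, 54 and 10 counts and Krt14 had 4, 109 and 22. Both were highest in replicate 2, the mutant library with the lowest Trp63. The part of epithelial cells in the rise of Trp63 was not tested. In sorted spermatogonia Trp63 had 1 count in each WT library and 0 in each mutant library, too few to test.

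Mdm2 was at 72.5, 75.0 and 77.7 CPM in WT testis and at 96.1, 80.3 and 107.2 in Prmt1-dKO. All mutant libraries were above WT on this scale, by a log2 fold change of 0.33 ± 0.12 SE that did not pass the test (edgeR adjusted p = 0.0925). In TPM the groups overlapped, since mutant replicate 2 stood at 38.6 against 46.6 to 48.7 in WT. Without that library the adjusted p was 0.00168 with a log2 fold change of 0.44.

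The cell cycle targets gave a near miss and a flat gene. Cdkn1a, which stops cells in G1, was at 4.48, 4.90 and 6.10 CPM in WT and at 5.98, 10.04 and 10.78 in mutant testis. The lowest mutant library overlapped the highest WT one and the others were above it, while in TPM the groups were apart (4.24 to 5.54 against 6.01 to 9.88). The log2 fold change was 0.79 ± 0.25 SE, with an edgeR adjusted p of 0.0574, and DESeq2 placed it just inside the threshold (adjusted p = 0.0492). Leaving out 1 library at a time moved the edgeR adjusted p between 0.0182 and 0.194. The nearest genes in pattern over the 6 libraries were Tcp1, Dlgap1 and Mta3 (r of 0.994, 0.993 and 0.992). Ccng1, the p53-induced cyclin G1, was level in testis, at 67.5, 73.6 and 68.4 CPM in WT and 70.4, 71.4 and 74.5 in Prmt1-dKO (log2 fold change 0.05 ± 0.10 SE, edgeR adjusted p = 0.780).

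Neither cell death target passed the test. Bax was at 82.0, 72.9 and 93.1 CPM in WT and 94.0, 137.5 and 80.6 in mutant testis, so that the groups overlapped and 1 mutant library, replicate 2, was far above the rest (log2 fold change 0.33 ± 0.19 SE, edgeR adjusted p = 0.263). Bbc3, which encodes the BH3-only protein Puma, was at 5.82, 5.52 and 6.28 CPM in WT and 7.01, 9.08 and 4.25 in Prmt1-dKO. Its mutant values lay on both sides of WT, and the log2 fold change of 0.20 ± 0.27 SE (edgeR adjusted p = 0.644) fell to −0.07 without replicate 2.

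None of the growth and stress targets passed the test, and in CPM the groups were apart for Sesn2 only. Sesn2 was at 61.8, 60.3 and 68.3 CPM in WT and 53.6, 54.8 and 45.04 in mutant testis, with every mutant library lower. Its log2 fold change was −0.31 ± 0.12 SE (edgeR adjusted p = 0.0957), and −0.37 with an edgeR adjusted p of 0.0149 without replicate 2. Phlda3, an inhibitor of Akt, was at 48.8, 47.3 and 60.0 CPM against 46.3, 63.9 and 43.7, with a log2 fold change of −0.02 ± 0.17 SE (edgeR adjusted p = 0.941). Trp53inp1, a cofactor of p53 that also acts in autophagy, was at 63.4, 80.6 and 59.3 CPM in WT and 87.1, 56.2 and 110.9 in Prmt1-dKO, where replicate 2 was the lowest of all 6 libraries. It gave 0.32 ± 0.23 SE (edgeR adjusted p = 0.353), 0.55 with an edgeR adjusted p of 0.00505 without that replicate, and 0.08 without Prmt1-dKO replicate 3 (edgeR adjusted p = 0.818).

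Leaving out Prmt1-dKO replicate 2 thus brought 4 more of the 10 genes past the FDR at any fold, Cdkn1a, Mdm2 and Trp53inp1 upward and Sesn2 downward, for 5 with Trp63. Over all genes the share past the FDR rose as well, from 19.1% to 31.6%.

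**Figure D2:**
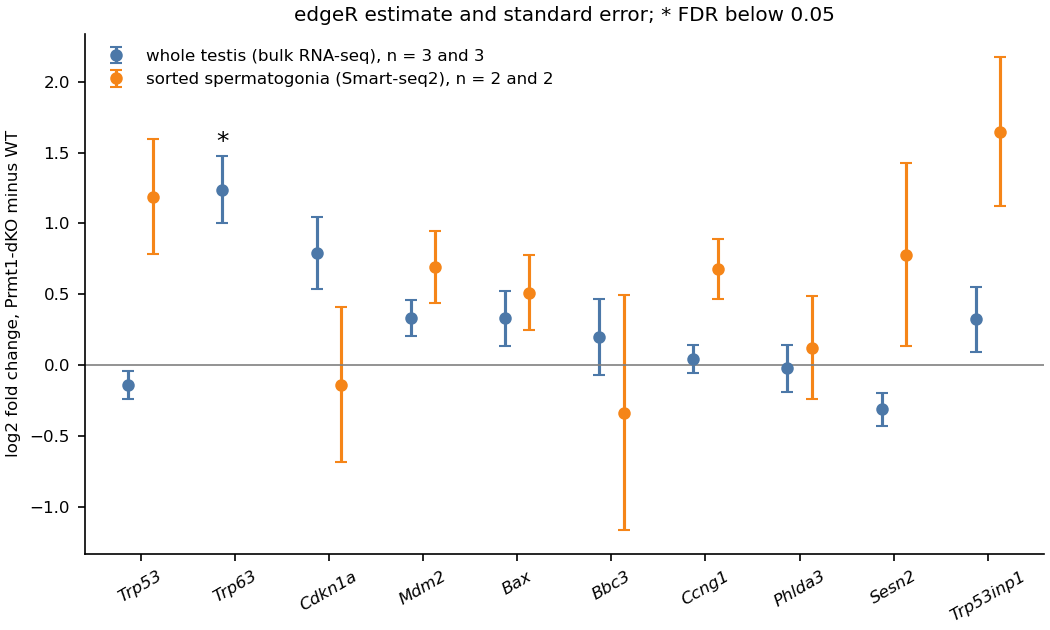
Log2 fold change of Prmt1-dKO over WT (y axis) with its standard error for the 10 genes (x axis) in whole testis and in sorted spermatogonia; an asterisk marks an FDR below 0.05. Trp63 in testis carries the only asterisk, and the largest step between the assays with opposite directions is that of Trp53, from −0.14 to 1.19.

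In sorted spermatogonia Trp63 could not be tested and none of the other 9 genes passed the FDR. Nor did any of the 16443 genes in edgeR's test (0% called), although 23.8% had an unadjusted p under 0.05, among them Trp53, Mdm2, Ccng1 and Trp53inp1. DESeq2 called 1248 genes higher and 674 lower and limma-voom 1546 and 150. Of these 9 genes, DESeq2 called Trp53inp1. On counts simulated for this design most of the genes DESeq2 called were unchanged ones, while edgeR missed nearly all of the 2-fold changes and most of the 4-fold ones, so that a gene that did not pass here may still differ. In CPM the mutant libraries lay wholly above WT for 6 of the 9, against 36.3% of all genes, and wholly below for 1, against 20.3%. In TPM they lay above for 3, Trp53, Ccng1 and Trp53inp1 (28.1% of all genes), and below for 1, Bbc3 (27.9%). The median log2 fold change of the 9 was 0.68, and 0.15 over all genes.

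Macrophage markers moved with genotype in the sorted libraries. Of 10, 9 were at 0 in both WT libraries (Cd14 was the exception), and in the mutant libraries 9 had counts, with 247 and 248 for the complement gene C1qb and 260 and 385 for Lyz2. The macrophage marker Adgre1 was at 0 in all 4. The summed level was 0 to 5.74 CPM in WT and 65.1 to 79.3 in Prmt1-dKO. Sertoli cell markers went from 463 to 473 CPM up to 808 to 961. The germ cell sum was 3300 to 3340 in WT and 3320 to 3660 CPM in Prmt1-dKO. The part of these cells in the values of the 9 genes was not tested.

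Trp53 was at 23.1 and 46.9 CPM in WT and at 79.9 and 79.8 CPM in mutant spermatogonia. Both mutant libraries were above both WT libraries, and the WT pair was itself apart, at 446 and 897 counts. The log2 fold change was 1.19 ± 0.41 SE (edgeR adjusted p = 0.173), with 0.78 without WT replicate 1 and 1.81 without WT replicate 2. Wrap53, its neighbour, went the other way in the means (102.2 and 67.6 CPM) with overlapping groups. Mdm2 was at 90.5 and 62.5 CPM in WT and 133.0 and 114.3 in Prmt1-dKO, higher in both mutant libraries (log2 fold change 0.69 ± 0.26 SE, edgeR adjusted p = 0.199). In TPM its groups overlapped, at 54.2 and 40.8 against 56.8 and 50.3.

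Cdkn1a did not follow. Its WT libraries gave 29.4 and 15.9 CPM and the mutant ones 22.0 and 19.2, between the WT values, with a log2 fold change of −0.14 ± 0.55 SE (edgeR adjusted p = 0.930) that turned to 0.39 without WT replicate 1. Ccng1 was at 113.5 and 92.4 CPM in WT and 183.6 and 145.8 in Prmt1-dKO, the groups again apart (0.68 ± 0.21 SE, edgeR adjusted p = 0.143). Bax was at 198.9 and 131.0 CPM in WT and 260.1 and 210.2 in Prmt1-dKO (0.51 ± 0.26 SE, edgeR adjusted p = 0.346), without overlap on this scale but with overlap in TPM (379.0 and 243.7 against 401.7 and 353.4). Bbc3 was the 1 gene with both mutant libraries below WT, at 9.11 and 9.47 against 6.69 and 8.01 CPM, and the difference missed the test (−0.34 ± 0.83 SE, edgeR adjusted p = 0.882). In TPM its groups were farther apart, at 12.1 and 12.5 in WT and 5.71 and 5.89 in Prmt1-dKO.

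Trp53inp1 had the largest estimate. It was at 41.6 and 15.4 CPM in WT and at 88.4 and 90.0 CPM in mutant spermatogonia, 3.13-fold higher by the fit (log2 fold change 1.65 ± 0.53 SE). edgeR gave an adjusted p of 0.150 and DESeq2 0.0331. The log2 fold change was 2.55 without WT replicate 1 and 1.12 without WT replicate 2. In TPM the groups were closer, at 9.92 and 14.4 in WT and 19.9 and 24.3 in Prmt1-dKO, and the lower WT library in CPM was the higher one. Sesn2 was at 27.6 and 9.52 CPM in WT and at 30.8 and 32.97 in Prmt1-dKO, where the upper WT library nearly reached the mutant ones and in TPM lay between them (0.78 ± 0.64 SE, edgeR adjusted p = 0.578). Its log2 fold change was 1.76 without WT replicate 1 and 0.23 without WT replicate 2. Phlda3 overlapped, at 27.1 and 33.6 against 34.4 and 31.6 CPM (0.12 ± 0.36 SE, edgeR adjusted p = 0.901). With WT replicate 1 left out, 6 of the 9 genes passed the FDR, and with WT replicate 2 left out 3 did, Trp53, Ccng1 and Trp53inp1. Of all genes 51.2% and 43.2% then passed. In these fits the remaining WT library is assumed to vary like the mutant pair. Without either mutant library none of the 9 passed.

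The difference between the genotype effects of the assays was tested for all genes with an interaction term. It passed the FDR for 2 of the 10 genes, Trp53 and Ccng1, and for 19% of the 19608 genes tested. For Trp53 the effect in sorted spermatogonia exceeded that in testis by 1.42 ± 0.35 on the log2 scale (SE, edgeR adjusted p = 0.0217). Ccng1 differed by 0.72 ± 0.21 (edgeR adjusted p = 0.0435), from a level reading in testis to a higher one in sorted cells. Both were past the threshold in DESeq2 (adjusted p = 0.0204 and 0.0438), and with RLE scaling or without the low-count filter only Trp53 was. The fit takes 1 spread for libraries of both assays, although the biological coefficient of variation was 0.155 in testis and 0.767 in sorted cells. Leaving out 1 library at a time, the Trp53 difference stayed between 1.01 and 2.03, but its adjusted p was above 0.05 in 8 of 10 cases, up to 0.0862, and passed only without either WT sorted library. That of Ccng1 passed only without WT replicate 1 or Prmt1-dKO replicate 2 of the sorted libraries.

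Other genes of the pathway were read from lists by role. Of 11 regulators of p53 tested in testis, 2 were past the FDR at any fold, both lower in Prmt1-dKO. Chek1, a checkpoint kinase, was at 33.1 ± 2.62 CPM in WT and 22.6 ± 2.42 in Prmt1-dKO (−0.55 ± 0.13, edgeR adjusted p = 0.0184). Atm, the kinase that signals double-strand breaks to p53, went from 75.9 ± 12.4 to 48.0 ± 11.1 CPM (−0.66 ± 0.19, edgeR adjusted p = 0.0380). Neither reached 2-fold. Of 7 further cell cycle targets 1 passed in edgeR's test and was higher, the kinase gene Plk2 (18.9 ± 1.65 to 35.0 ± 3.86 CPM, 0.89 ± 0.13, edgeR adjusted p = 0.00323). None of 10 further cell death targets passed in edgeR's test. Gtse1, a cell cycle target that restrains p53, was at 51.7 ± 1.91 and 41.4 ± 2.20 CPM (edgeR adjusted p = 0.0588, DESeq2 0.0465). Perp, with the smallest p among the death targets, had 22 to 32 counts in WT and 27 to 98 in mutant libraries (1.37 ± 0.46, edgeR adjusted p = 0.0654). It passed in DESeq2 (1.36, adjusted p = 0.0329), in edgeR without the low-count filter (1.34, adjusted p = 0.00812) and without Prmt1-dKO replicate 1 (1.71, adjusted p = 0.016), and was 0.78 without Prmt1-dKO replicate 2 (edgeR adjusted p = 0.117). Zmat3 was at 24.6 ± 0.36 and 20.2 ± 1.59 CPM (edgeR adjusted p = 0.120).

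Repair and metabolism targets split. Of 11, Ddb2, which recognises ultraviolet damage, rose from 21.2 ± 1.98 to 35.2 ± 3.30 CPM (0.73 ± 0.13, edgeR adjusted p = 0.00555), and Ddit4, an inhibitor of mTORC1, fell from 138 ± 16.7 to 93.2 ± 6.21 CPM (−0.57 ± 0.12, edgeR adjusted p = 0.0123). In the BCL2 family 2 of 12 were past the FDR, both lower in Prmt1-dKO, while 7 of the 12 had a log2 fold change above 0. Hrk, a BH3-only death gene, was the only gene of these 5 lists past both the FDR and 2-fold, from 18.9 ± 0.80 to 7.06 ± 1.73 CPM (−1.42 ± 0.19, edgeR adjusted p = 0.00229), and Bok, a Bax relative, went from 165 ± 13.2 to 109 ± 23.3 CPM (−0.60 ± 0.15, edgeR adjusted p = 0.0267). In all, 7 of the 51 list genes tested in testis passed at any fold, 2 upward and 5 downward, beside 19.1% of all genes. Leaving out 1 testis library at a time kept Plk2, Ddb2 and Hrk past the FDR in all 6 fits. Chek1 missed it without any one of the WT replicates, Ddit4 without WT replicate 1 or 3, and Atm without any one of the WT replicates or Prmt1-dKO replicate 3. Bok passed only without Prmt1-dKO replicate 2 (−0.79, edgeR adjusted p = 4.74e-05), and its highest edgeR adjusted p was 0.0945. The medians of the 5 lists lay between 0.03 and 0.16, against 0.02 over all genes.

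In sorted spermatogonia no gene of these lists passed the FDR in edgeR's test, which called 0 of all genes. Of those named by rank of p, DESeq2 placed Ddb2 (adjusted p = 4.62e-14), Atr (0.000551), Sesn1 (0.0032) and Btg2 (0.0104) past it, and limma-voom Ddb2 and Plk3 (both 0.0244). The smallest adjusted p values were those of Ddb2 (147 ± 9.57 to 40.1 ± 3.22 CPM, −1.88 ± 0.19, edgeR adjusted p = 0.0774), of the sestrin gene Sesn1 (68 ± 15 to 25.4 ± 3.50 CPM, −1.42 ± 0.32, edgeR adjusted p = 0.0774) and of Plk3, which was listed at 0 in both WT libraries and had 29 and 44 counts in the mutant ones. Atr, the kinase of the replication checkpoint, followed with 333 ± 109 and 142 ± 20.1 CPM (edgeR adjusted p = 0.0779), and the antiproliferative gene Btg2 with 15.3 ± 5.18 and 47.4 ± 6.95 CPM (edgeR adjusted p = 0.104). Ak1, a repair and metabolism target outside the naming rule, was higher in Prmt1-dKO (log2 fold change 8.40 ± 1.63 SE, edgeR adjusted p = 0.0779). The others named by rank of p were higher in the mutant means, namely Ppm1d (73.9 ± 11.1 and 112 ± 16.2 CPM), Aen (85.5 ± 8.04 and 117 ± 18.7), Tnfrsf10b (12.9 ± 0.95 and 26.0 ± 7.24) and Bmf (0 and 17 against 101 and 118 counts), with edgeR adjusted p values of 0.208 to 0.375. Ddb2 thus moved up in testis and had a lower value in mutant sorted cells, and the difference of these effects was −2.52 ± 0.23 (SE, edgeR adjusted p = 0.000223). Bok differed by 1.67 ± 0.50 in the other direction (edgeR adjusted p = 0.0473). Ddit4, lower in mutant testis, had a higher estimate in mutant sorted cells (log2 fold change 2.34 ± 0.79 SE, edgeR adjusted p = 0.169). The median log2 fold changes of the lists were 0.48 for regulators, 0.31 for cell cycle, 0.44 for cell death, −0.01 for repair and metabolism and 0.66 for the BCL2 family, against 0.15 over all genes.

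**Figure D3:**
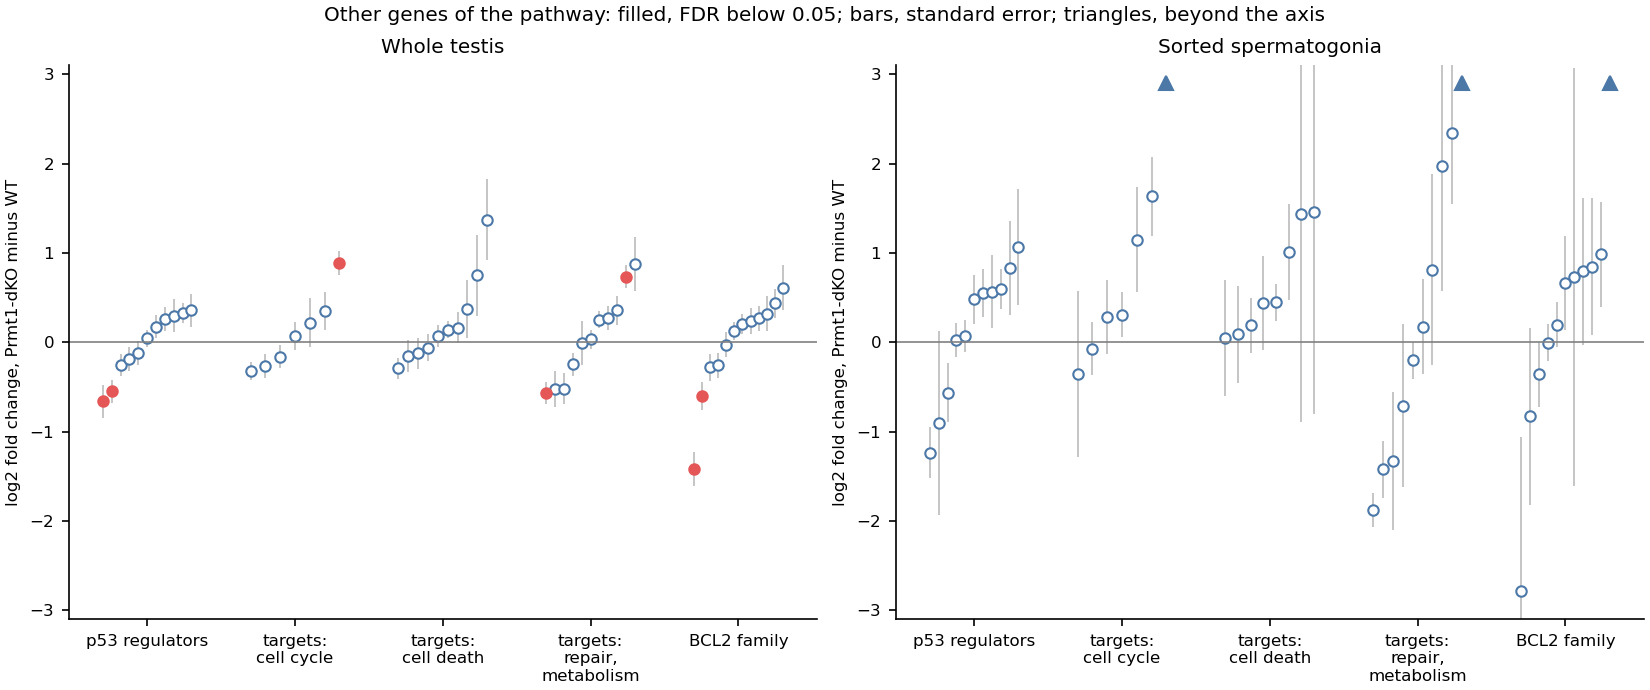
Log2 fold change of Prmt1-dKO over WT (y axis) with its standard error for the genes of 5 lists around p53 (x axis), in whole testis (left) and sorted spermatogonia (right); filled points have an FDR below 0.05 and triangles lie beyond the axis. Filled points appear in testis only, 2 above 0 and 5 below, and the errors are wider in sorted cells.

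Promoter marks were read from the peak lists as summits within 3000 bp of any annotated start, in coordinates of GRCm38, and the mark was taken as present at a gene if 2 or more lists of that mark and age had one. Trimethylation of H3K4 (H3K4me3), the mark of active starts, was present at 9 of the 10 genes at P7, all but Trp63, against 60.7% of coding genes, and at the same 9 at P14 (63.1%). At P7 the summit with the smallest p in each list had an enrichment of 8.77- and 9.08-fold at Ccng1, 6.29- and 7.07-fold at Bax, 6.71- and 7.08-fold at Trp53inp1 and 5.90- and 6.36-fold at Sesn2. By the same reading Bbc3 had the lowest enrichment of the 9, at 2.61- and 3.35-fold, with 3 summits in each list. At Cdkn1a the peaks did not lie at the first start with the p53 site but over the second group of starts and beyond. Trp63 had no summit of any mark at P7 and 1 at P14, in 1 of the 2 lists of acetylated H3K27 (H3K27ac).

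Acetylation of H3K27, which marks active promoters and enhancers, was present at 4 of the 10 genes at P7 (Ccng1, Phlda3, Sesn2 and Trp53inp1; 30.9% of coding genes) and at 8 at P14 (48.9%), where Bbc3 and Trp63 were without it. The 5 arginine marks are laid by different enzymes, asymmetric dimethylation of H4R3 (H4R3me2a) mainly by Prmt1. At P7 it was present at 3 genes, Cdkn1a, Ccng1 and Sesn2 (15.3% of coding genes), each with a summit in list 1 and 1 other of the 3 lists. None of the 3 was left without list 1, only Cdkn1a without list 3, and Ccng1 and Sesn2 without list 2. At P14 it was present at 5, Trp53, Mdm2, Ccng1, Sesn2 and Trp53inp1 (49%), and at 2 to 4 with 1 list left out. Asymmetric H3R2me2a was present at 1 gene at P7 (10.9% of coding genes) and 6 at P14 (51.3%), and H3R8me2a at 2 (9.67%) and 7 (33%). Read from 1 P7 list alone, H3R2me2a was at 5 genes in list 1 and 2 in list 2, against 24.3% and 24.1% of coding genes. Monomethylation of H4R3 (H4R3me1) was present at 3 genes at both ages, against 10.8% and 29.9% of coding genes, and H4R3me2s in WT at 5 at both ages, against 17.7% and 34.2%. Over the arginine marks, 14 of 50 pairs of a gene and a mark were present at P7, or 28%, and 26 at P14, or 52%. Over all coding genes the shares were 12.9% and 39.4%. The lists held 18423 to 55908 peaks for these marks at P14 against 15361 to 36145 in WT at P7, and were longer at P14 for every arginine mark but H4R3me2s. Cut to equal length within each mark, they gave 11 pairs at P7, or 22%, and 15 at P14, or 30%, against 11.5% and 26.9% over all coding genes.

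Ccng1 carried each of the 5 arginine marks at both ages. Its arginine summits were found in 10 of 11 WT lists at P7 and 11 of 12 at P14. Sesn2 and Trp53inp1 had 3 and 2 of the 5 marks at P7 and all 5 at P14. Bax had none in 2 lists at either age, although it was the most abundant of the 10 transcripts. The arginine peaks were low. At a q of 0.01 in place of the authors' p of 0.005, 0 of 50 pairs were left at P7 and 9 at P14, or 18%, against 0.924% and 15.1% of pairs over all coding genes.

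At P7, H4R3me2s was mapped in both genotypes, with 19981 and 36145 peaks in the WT and 33941 and 28221 in the Prmt1-dKO lists. This mark, laid by Prmt5, was present in both WT lists at 5 of the 10 genes, Cdkn1a, Bbc3, Ccng1, Sesn2 and Trp53inp1 (17.7% of coding genes), and in both mutant lists at 1, Bbc3 (9.77%). Ccng1 had summits 360 and 189 bp downstream of a start in the WT lists, at 4.26- and 5.02-fold enrichment, and none in the mutant lists. Sesn2 had them at 358 and 526 bp, at 4.49- and 5.32-fold, and none in the mutant lists either. Cdkn1a had a summit at −1986 and −1717 bp from a start, at 3.01- and 2.58-fold, at different places in the 2 lists, and none in the mutant lists. Trp53inp1 had summits at 5.48- and 4.07-fold in WT and at 3.08-fold in mutant list 1. Bbc3 had them at 2.55- and 2.87-fold in WT, near different starts, and at 3.47- and 4.04-fold in the mutant. Bax and Phlda3 had a summit in mutant list 1 and in no WT list. The other way round, Trp53 (6.25-fold) and Mdm2 (2.84-fold) had one in WT list 1 and in no mutant list.

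Of the 5 genes with a summit in both WT lists, 3 had none in either mutant list, 1 had it in 1 list and 1 in both. Of 3892 coding genes with a summit in both WT lists, 31.2% had none in the mutant lists and 25.3% had it in both. Read from mutant list 1 alone, the mutant count was 4 genes, Bax, Bbc3, Phlda3 and Trp53inp1, against 27.4% of coding genes. The number of sequenced fragments behind each list is unknown, so that the absence of a call is no measure of absent signal, and with 2 lists a genotype no test was made.

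**Figure D4:**
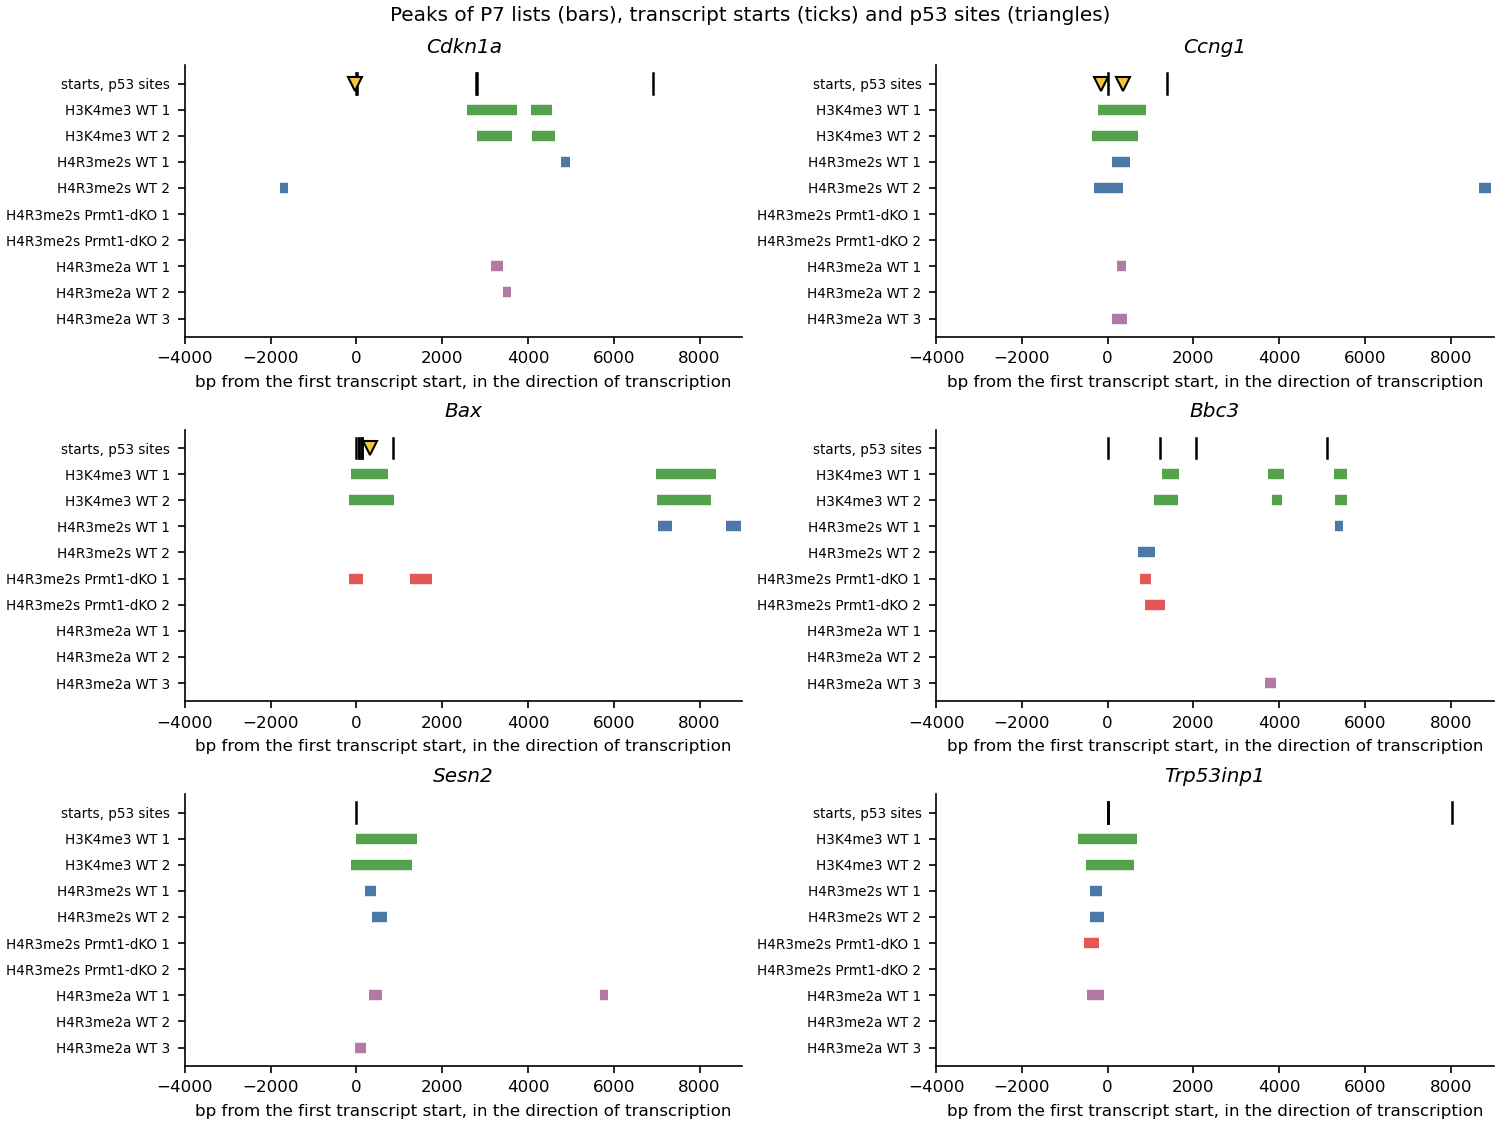
Peaks of single P7 lists (bars, 1 row a list) around 6 genes, by distance in bp from the first annotated start in the direction of transcription, with transcript starts as ticks and p53 sites as triangles. H4R3me2s bars of WT lists lie under the H3K4me3 bars at Ccng1, Sesn2 and Trp53inp1, and the mutant rows of Ccng1, Sesn2 and Cdkn1a hold no peak in the range drawn.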

How the data were processed

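The 10 RNA libraries (3 and 3 whole testis, 2 and 2 Smart-seq2) and 33 CUT&Tag lists were grouped by their labels. The authors deposited expected counts and TPM from RSEM after fastp 0.23.2 trimming (RSEM version and annotation: not given in the sources), and peak lists called per sample with MACS2 2.1.0 on GRCm38, in which the deposited fold enrichment (a ratio over background), −log10 p-value and −log10 q-value were used; their peak names carry a p of 0.005, or a q of 0.05 for H3K4me3. Peak ends lay within the chromosome lengths of GRCm38. Expected counts were rounded to whole numbers, filtered by expression (minimum count 10), TMM-scaled and tested per assay with edgeR 4.0.16 (quasi-likelihood, group means only) in R 4.3.3, with Benjamini-Hochberg adjustment over all genes. Genes were called at an FDR below 0.05 and at least 2-fold, as in the study. The interaction was fitted over all 10 libraries. The edgeR test was tested on simulated data. Alternatives were DESeq2 1.42.0, limma-voom (limma 3.58.1), RLE scaling, no filter, a replicate block and each library left out (for peaks a window of 1000 bp, any overlap, a q of 0.01 and equal list length); leaving libraries out of the interaction, and its values for Ddb2 and Bok, were added after seeing the data.

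The members and lists were chosen with earlier results of these data known. Named besides the 10 genes were, per list and assay, up to 4 called genes in order of p, or the 2 with the smallest p where none was called, then the 3 genes most like Trp53 and Cdkn1a and neighbours at their promoters. Other genes past the FDR at any fold, Ak1, and the epithelial list, were added after their values were seen. Tool names and versions of the upstream steps are from the submitters' processing notes. Library totals were 12396345 to 18547103 counts.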

Additional observations from a re-analysis of the deposited data

Results flagged for a closer look

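The genotype difference differed between sorted spermatogonia and whole testis, by a test of the difference itself, for Trp53 (log2 difference 1.42), Ccng1 (0.72), Bok (1.67) and Ddb2 (−2.52). Bok and Ddb2 were tested in this way after their values had been seen, because they were named in both assays. With 1 library left out at a time, the Ddb2 difference stayed between −2.71 and −2.42 and past the FDR in all 10 cases, and that of Bok stayed between 1.15 and 2.55 and was past the FDR only without either WT sorted library. The assays differ in library preparation and in the cells they hold, which cannot be told apart here.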

How the results depend on the processing

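Without 1 library, the number of the 10 genes called higher in testis ran from 0 (without WT replicate 1) to 1, and the number past the FDR at any fold from 0 to 5. DESeq2 and the fit without a low-count filter each gave 2 at any fold. In sorted cells DESeq2 gave 1 gene, both at 2-fold and at any fold. Leaving out 1 sorted library leaves 1 library in a group, so that counts from those fits carry little weight. The interaction passed for 1 gene with RLE scaling, for 1 without the filter, and for 0 with any 1 testis library left out. Leaving out a library turned the sign of 4 genes, all of them with differences that missed the FDR. In testis these were Bbc3 (−0.07 to 0.45, lowest without Prmt1-dKO replicate 2) and Phlda3 (−0.21 to 0.08, with 0.07 without WT replicate 3 and 0.02 and 0.08 without Prmt1-dKO replicates 1 and 3). In sorted cells they were Cdkn1a (−0.50 to 0.39) and Phlda3 (−0.01 to 0.30), both turned without WT replicate 1, and in the interaction Bax (−0.01 to 0.62, lowest without testis Prmt1-dKO replicate 3) and Phlda3 (−0.01 to 0.40, lowest without testis WT replicate 3). At a q of 0.01 the pairs of gene and arginine mark were 0 at P7 and 9 at P14, and the genes with H4R3me2s 0 in either genotype. At equal list length they were 15 pairs at P14 and 3 genes with H4R3me2s in WT. With 1 list left out they were 11 to 18 pairs at P7, 23 to 28 at P14, 5 to 7 genes in WT and 1 to 4 in Prmt1-dKO. Single P7 H4R3me2s lists marked 33% and 33.7% of coding genes in WT and 27.4% and 23% in Prmt1-dKO. The p53 sites covered 6 genes with 3 deviations and 5 with a spacer. The cause of these shifts was not tested. Replicate numbers are not known to pair the samples. Deviations of same-numbered testis libraries from their group means correlated at 0.082, −0.221 and −0.119, and those of sorted libraries at 0.018. With 2 sorted libraries a group the correlations can differ in sign only, and a shared origin of same-numbered samples is not excluded. A replicate block left 1 of the 10 genes called in testis, Trp63 (1.23, edgeR adjusted p = 0.0341), and 0 in sorted cells, and over all genes it called 691 higher and 259 lower in testis against 881 and 294. Over the lists, the block left Atm (edgeR adjusted p = 0.0797) and Bok (0.0619), and also Prmt1 (0.0814), above 0.05 in testis. Trp63 rested on 30 to 96 counts a library in testis and on 0 or 1 in sorted cells.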
